A study of Mus musculus with 9 samples.

Results

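The ribosome biogenesis and nucleolar genes are 44 genes that encode the machinery for making ribosomal RNA, modifying and cutting it, and assembling it with proteins into the small and large ribosomal subunits. They were chosen by symbol as genes of this pathway, with earlier results of these data known, and all 44 were found among the 48526 genes of the count table. Of these, 43 passed the filter on low counts and were tested among 18858 genes. The remaining member, Wdr74, which encodes a WD-repeat factor of large subunit assembly, had between 0 and 4 counts per library and 6 counts in total, and was not tested. Whether these near-zero counts reflect low expression or how reads were counted for this gene was not tested. The samples were neural stem cells (NSCs) isolated from the subependymal zone (SEZ) of adult C57BL/6 mice (C57BL/6J in the study's methods) and cultured. They were collected undifferentiated (0 h), or 1 h and 6 h after transfer to differentiation conditions, which gave 9 libraries, 3 for each of these times. Differentiation was induced by an adhesive substrate and the withdrawal of EGF, with FGF kept in the medium. The study's methods state that cells fixed soon after induction had first been seeded in complete medium, which still held EGF, but not whether this held for the RNA-seq cultures or on which surface the 0 h cells grew. No untreated cultures at 1 h or 6 h were analysed here.

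Ribosome synthesis starts in the nucleolus, where RNA polymerase I transcribes the ribosomal DNA repeats into a long precursor RNA. Small nucleolar ribonucleoproteins (snoRNPs) guide methylation (box C/D) and pseudouridylation (box H/ACA) of this precursor, the small subunit processome cuts and folds its first part, and a separate set of factors assembles the large subunit. The genes of this pathway are known to follow growth factor signalling and the MYC transcription factor, and their output is high in proliferating stem and progenitor cells.

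The total count per library was between 65871454 and 105592597. Libraries that carry the same replicate number in the labels resembled each other once the effect of time was taken out, so the number was kept as a block in the fit. Expression is given as CPM, counts scaled to library size, which is a share of the measured RNA. A change in total RNA per cell is therefore not measured, and fewer cells of a type cannot be told apart from less RNA per cell. Among 8 NSC markers, 7 were above 1 CPM in every library (summed level 6011 to 8937 CPM), and Gfap was between 0.483 and 1.61 CPM. The summed level of 4 neuron markers was between 28.9 and 53.3 CPM at 0 h, between 33.5 and 59.2 CPM at 1 h and between 63.6 and 135 CPM at 6 h, with 2 of the 4 above 1 CPM in every library. Over all libraries Syt1 had the widest range of these (10.3 to 115 CPM), against 13.2 to 25.8 CPM for Syn1. Rbfox3 reached at most 7.59 CPM and Snap25 at most 5.11 CPM. The neuron list moved with the time point, and its part in the results below was not tested. The 4 microglia and leukocyte markers summed to 0.0820 to 0.320 CPM, the 4 mature oligodendrocyte markers to 0.820 to 2.5 CPM and the 4 endothelial markers to 1.46 to 4.31 CPM, and Hbb-bs and Hba-a1 were at 0 in every library. The 3 ependymal markers summed to 37.8 to 89.0 CPM, nearly all of it from Foxj1 (37.0 to 88.3 CPM).

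The comparison of 6 h with 0 h asks how the pathway stood after several hours of differentiation. Of the 43 tested members, 39 fell and none rose (edgeR quasi-likelihood test with replicate block, adjusted p under 0.05). Over all genes tested, 17.5% were called lower and 17.4% higher. The members' median log2 fold change was -0.34, which is 79.1% of the starting level, against 0.00 over all genes tested. The changes were small, between -0.67 (Nop58) and -0.08 (Nob1), and 8 members lay below -0.5. At an unadjusted p under 0.05, 40 members were lower and 0 higher (22.1% and 21.9% of all genes tested), and DESeq2 with the same block called 39 lower (16.5% of all genes tested) and 0 higher.

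These changes were shared by the replicates. Each of the 43 tested members was lower at 6 h in 3 of 3 replicates, as were 31.7% of all genes tested, and the members' median log2 ratio was -0.32, -0.37 and -0.31 in replicates 1, 2 and 3. The 3 libraries at 6 h lay below the 3 at 0 h without overlap for 26 members (12.1% of all genes tested). The members together took 0.571% to 0.666% of all counts at 0 h, 0.531% to 0.655% at 1 h and 0.407% to 0.506% at 6 h. Without Ncl and Npm1 the share was 0.376% to 0.431% at 0 h and 0.286% to 0.349% at 6 h, so that the lower share was not carried by the most abundant members alone.

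The number of calls rested on the replicate block. The common biological coefficient of variation over all genes tested was 0.0627 with the block and 0.277 without it. Without the block edgeR called 3 members lower at 6 h (Ddx21, Rrn3 and Ubtf), with 0.955% of all genes called lower. DESeq2 without the block called 12 (4.3% of all genes tested). The adjusted p-values without the block of the other 36 called members ran from 0.0547 (Dkc1) to 0.789 (Wdr75) in edgeR. The members' median was -0.33 in that fit. With the block, 30 of the 39 calls held in 9 of 9 fits with a single library omitted, and 27 in 3 of 3 fits with a replicate number omitted. The 9 others are named below with their groups. Omitting all libraries of replicate 2 left 29 members called.

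**Figure D1:**
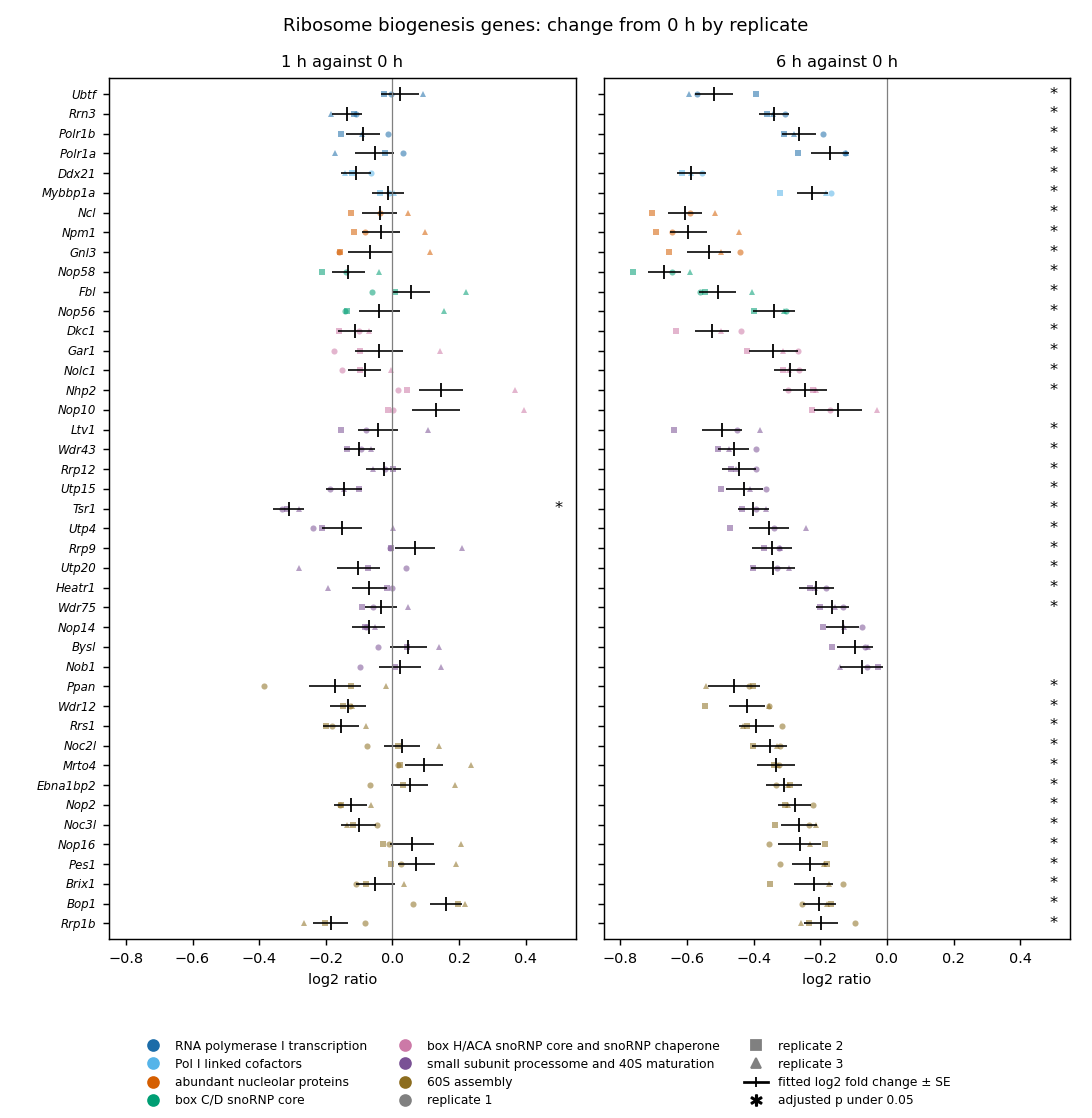
Change of the 43 tested members at 1 h (left) and 6 h (right) against 0 h, by role. Points are log2 ratios within replicates 1, 2 and 3, black bars the fitted log2 fold change ± SE, and asterisks an adjusted p under 0.05 (edgeR with replicate block). At 6 h every point lies below 0 and 39 members are past the threshold. At 1 h the points lie on both sides of 0, with 30 of the 43 fitted changes below it, and 1 member, Tsr1, is past the threshold.

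RNA polymerase I transcription is the first step of the pathway, and 4 of its 4 member genes fell at 6 h, with a median log2 fold change of -0.30. Ubtf, which encodes the ribosomal DNA binding factor UBF (chromosome 11, 102304560 to 102319742), had 233.9, 196.1 and 227.7 CPM at 0 h in replicates 1, 2 and 3. It had 233.1, 192.9 and 242.9 CPM at 1 h, and 157.3, 149.1 and 150.8 CPM at 6 h. The 3 libraries at 6 h were close to each other and below all 6 earlier libraries. The log2 fold change of Ubtf at 6 h against 0 h was -0.52 (SE 0.058, edgeR adjusted p = 2.3e-05, and 0.0435 without the block). Rrn3, whose product TIF-IA makes RNA polymerase I competent to initiate, went from 142.5 ± 4.32 CPM (SD, n = 3) to 112.7 ± 2.09 CPM (SD, n = 3), with a log2 fold change of -0.34 (SE 0.045, edgeR adjusted p = 9.95e-05, and 0.0291 without the block). The changes of the 2 subunit genes among the members were smaller. Polr1b, which encodes a catalytic subunit, had a log2 fold change of -0.26 (edgeR adjusted p = 0.00133). Polr1a, which encodes the largest subunit, had one of -0.17 (edgeR adjusted p = 0.0348), and it stayed below 0.05 in 4 of 9 fits with a single library omitted (not without any of the 0 h libraries or 6 h replicates 1 and 2).

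The cofactors linked to RNA polymerase I both fell. Ddx21, an RNA helicase of the nucleolus (chromosome 10, 62580251 to 62602281), had 299.9, 282.5 and 329.8 CPM at 0 h, 286.9, 259.6 and 298.7 CPM at 1 h, and 204.0, 184.4 and 219.3 CPM at 6 h. Replicate 2 was the lowest and replicate 3 the highest at each time, and the libraries at 6 h did not overlap with the earlier ones. Its log2 fold change was -0.59 (SE 0.045, edgeR adjusted p = 9.7e-07, and 0.0266 without the block). Mybbp1a, which encodes a MYB-binding protein of the nucleolus, had a log2 fold change of -0.22 (SE 0.048, edgeR adjusted p = 0.00284), and its groups overlapped.

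The group listed as abundant nucleolar proteins had the lowest median of the 7 role groups, -0.60, and 3 of 3 genes fell at 6 h. By RNA level the name holds for Ncl and Npm1, while Gnl3 was far lower. Ncl encodes nucleolin, which binds precursor rRNA and nucleolar chromatin (chromosome 1, 86344719 to 86359400). It had 1611, 1077 and 1207 CPM at 0 h in replicates 1, 2 and 3, then 1570.5, 987 and 1248 CPM at 1 h, and 1069.9, 659.9 and 844 CPM at 6 h. Replicate 1 was the highest and replicate 2 the lowest at each time, and the highest library at 6 h lay just under the lowest at 0 h. The log2 fold change of Ncl was -0.61 (SE 0.051, edgeR adjusted p = 2.52e-06, and 0.227 without the block). Npm1, which encodes the histone chaperone and nucleolar scaffold nucleophosmin, went from 913.4 ± 60.9 CPM (SD, n = 3) to 608.3 ± 89.2 CPM (SD, n = 3). Its log2 fold change was -0.60 (SE 0.056, edgeR adjusted p = 5.93e-06, and 0.0627 without the block). Gnl3, which encodes the GTP-binding protein nucleostemin, went from 96.0 ± 8.38 CPM (SD, n = 3) to 66.5 ± 8.36 CPM (SD, n = 3), with a log2 fold change of -0.53 (SE 0.065, edgeR adjusted p = 4.81e-05, and 0.116 without the block).

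The core proteins of box C/D snoRNPs fell in 3 of 3 cases, with a median log2 fold change of -0.51. Nop58, a scaffold protein of the particle (chromosome 1, 59684971 to 59719044), had 258.7, 167.7 and 201.3 CPM at 0 h, 234.6, 144.7 and 195.6 CPM at 1 h, and 165.3, 98.6 and 133.4 CPM at 6 h. The order of the replicates was the same at each time, and the libraries at 6 h lay below those at 0 h without overlap, but overlapped with those at 1 h. Nop58 had the lowest log2 fold change of the 43 tested members, -0.67 (SE 0.049, edgeR adjusted p = 7.73e-07, and 0.201 without the block), which left 62.9% of the starting level. Fbl, which encodes the methyltransferase fibrillarin, had a log2 fold change of -0.51 (SE 0.056, edgeR adjusted p = 2.02e-05, and 0.113 without the block). Nop56, the partner of Nop58, had one of -0.34 (SE 0.062, edgeR adjusted p = 0.000972, and 0.336 without the block).

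Of the 5 genes of box H/ACA snoRNPs and their chaperone, 4 fell at 6 h. Dkc1 encodes the pseudouridine synthase dyskerin (chromosome X, 75095854 to 75109777). It had 111, 105 and 121 CPM at 0 h, 103, 94.2 and 115 CPM at 1 h, and 81.4, 67.7 and 85.6 CPM at 6 h. The libraries at 6 h lay below all earlier ones. Its log2 fold change was -0.53 (SE 0.051, edgeR adjusted p = 7.29e-06, and 0.0547 without the block). The other core proteins changed less. Gar1 had a log2 fold change of -0.34 (edgeR adjusted p = 0.00291), which was not called when all libraries of replicate 2 were left out (edgeR adjusted p = 0.0633). Nhp2 had a log2 fold change of -0.25 (edgeR adjusted p = 0.0118) and was called in 6 of 9 fits with a single library omitted (not without 0 h replicates 1 and 2 or 6 h replicate 3). Nop10 had a log2 fold change of -0.15 and was not called (edgeR adjusted p = 0.138), although it was without 0 h replicate 3 or 1 h replicate 3. Nolc1, which encodes the snoRNP chaperone Nopp140, had a log2 fold change of -0.29 (SE 0.049, edgeR adjusted p = 0.00052).

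Among the 13 genes of the small subunit processome and small subunit maturation, 10 fell at 6 h, with a median log2 fold change of -0.35. Ltv1, a factor of late small subunit maturation (chromosome 10, 13178140 to 13193168), had 50.1, 53.0 and 63.9 CPM at 0 h, 47.4, 47.6 and 68.8 CPM at 1 h, and 36.6, 33.9 and 48.9 CPM at 6 h. Replicate 3 was the highest at each time, and its 6 h library was just under the lowest 0 h library. The log2 fold change of Ltv1 was -0.50 (SE 0.060, edgeR adjusted p = 4.69e-05, and 0.232 without the block). Wdr43, a member of the early transcription-linked subcomplex, had one of -0.46 (SE 0.047, edgeR adjusted p = 1.23e-05, and 0.0882 without the block). Rrp12, which is needed for the export of both subunits, had one of -0.44 (SE 0.052, edgeR adjusted p = 3.25e-05, and 0.363 without the block), although its groups overlapped. The members of the early subcomplex ran from -0.46 (Wdr43) through Utp15 (-0.43), Utp4 (-0.35) and Heatr1 (-0.21) to Wdr75 (-0.16), and 5 of 5 were called. Heatr1 was called in 7 of 9 fits with a single library omitted (not without 0 h replicate 3 or 6 h replicate 2) and Wdr75 in 5 (not without 0 h replicates 1 and 2 or 6 h replicates 2 and 3). Utp20 (-0.34) and the U3 snoRNP protein gene Rrp9 (-0.35) were also called. The 3 genes of this group that were not called were Nop14 (-0.13, edgeR adjusted p = 0.0548, and called without 1 h replicate 3), Bysl (-0.10, edgeR adjusted p = 0.19) and Nob1 (-0.08, edgeR adjusted p = 0.387), the last of which encodes the endonuclease that makes the end of mature small subunit rRNA.

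The largest group was large subunit assembly, in which 13 of 13 tested genes fell at 6 h, with a median log2 fold change of -0.28. Ppan, a Brix-domain protein of the early particle (chromosome 9, 20888175 to 20892178), had 47.2, 37.4 and 52.7 CPM at 0 h, 36.0, 34.3 and 52.0 CPM at 1 h, and 35.3, 28.2 and 36.0 CPM at 6 h. The groups at 0 h and 6 h did not overlap, and at 1 h replicate 1 was already near its 6 h value while replicate 3 was near its 0 h value. The log2 fold change of Ppan at 6 h was -0.46 (SE 0.077, edgeR adjusted p = 0.000555, and 0.249 without the block). Wdr12 had one of -0.42 (SE 0.054, edgeR adjusted p = 6.85e-05, and 0.479 without the block) and Rrs1, which helps to load the small 5S particle, one of -0.39 (SE 0.053, edgeR adjusted p = 0.000107, and 0.648 without the block). Both varied widely between replicates, and their groups overlapped. Wdr12 forms a complex with the products of Pes1 and Bop1, whose log2 fold changes were -0.23 (edgeR adjusted p = 0.00547) and -0.20 (edgeR adjusted p = 0.00595). The other 8 called genes (Noc2l, Mrto4, Ebna1bp2, Nop2, Noc3l, Nop16, Brix1 and Rrp1b) lay between -0.35 and -0.20. Within this group Bop1, Pes1 and Nop16 were not called without 0 h replicate 1, Nop16 not without 6 h replicate 1, and Brix1 and Rrp1b not without 0 h replicate 2 or 6 h replicate 2. Rrp1b was also not called without 0 h replicate 3.

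**Figure D2:**
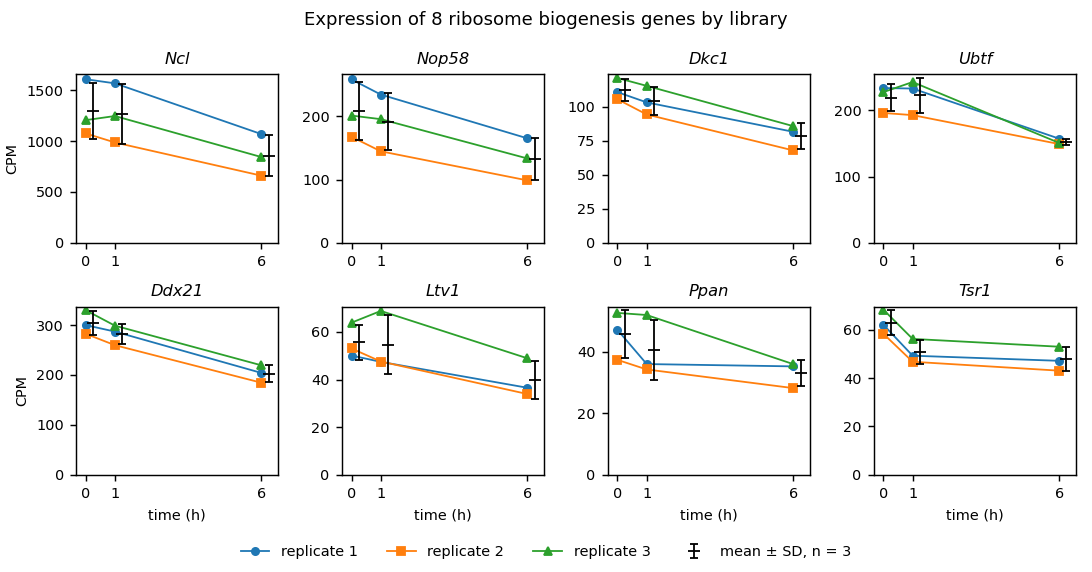
Expression (CPM, linear axis from 0) of 8 members in every library against time (h). Lines join the libraries of one replicate, and bars are mean ± SD, n = 3. In each panel all 3 lines are lowest at 6 h, and Tsr1 has most of its fall by 1 h.

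Some of these counts may include reads from other genes. Overlaps were sought in GENCODE M21, with snoRNA, scaRNA and miRNA genes left out. Of the 43 tested members, 17 share exonic sequence with a gene on the opposite strand (among them Dkc1, Gnl3, Nop56, Mybbp1a, Wdr43, Tsr1, Bop1, Wdr12 and Noc2l), and 0 with such a gene on the same strand. The annotated exons of Ppan merge into 1 block over the whole gene, which holds 2 snoRNA genes on the same strand. The labels call the libraries stranded, but the strand setting of the counting is not given in the sources used here. Transcripts of Fbl, Mrto4, Nop56, Npm1 and Pes1 have copies elsewhere, mostly processed pseudogenes, that align at 95% identity or more over at least 25% of their length, so the counts of these 5 genes are less certain. Gene counts also do not separate spliced from intron-retaining transcripts.

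Many snoRNAs are known to be cut out of the introns of host genes, so that the same transcription unit can give both a protein and a guide RNA. Of the 43 tested members, 8 (18.6%) had a snoRNA gene within their bounds on the same strand, 23 snoRNA genes in all, against 251 of 14216 protein-coding genes tested (1.77%). These 8 were Ncl, Gnl3, Nop56, Nop58, Dkc1, Wdr43, Tsr1 and Ppan. Their log2 fold changes at 6 h lay between -0.67 and -0.34 with a median of -0.49, and those of the other 35 members between -0.60 and -0.08 with a median of -0.29. Ncl, Gnl3, Nop56 and Nop58 come from the 2 role groups with the lowest medians. The other genes of these groups, Npm1 (-0.60) and Fbl (-0.51), had no snoRNA gene within their bounds. This is a description of the members, with no test, and it does not separate hosting from role. The snoRNAs themselves were not analysed here.

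The promoters of the members were searched for the E-box CACGTG, the sequence that MYC with MAX and several other bHLH factors bind. RefSeq promoters (GRCm38.p6, 250 bases before to 50 after the start) were at hand for 38 of the 43 tested members (not for Npm1, Fbl, Rrp12, Bop1 and Rrs1), and 9 of them (23.7%) held CACGTG, which reads the same on both strands. It was found in 1331 of 11963 genes tested (11.1%), in 8.09% of all genes with a promoter, and in 17 of 94 other pathway genes (18.1%). With the variant CACGCG on either strand counted as well, the shares were 50% of the members, 46.8% of the other pathway genes and 27.8% of the genes tested. Windows are shown for Ltv1 and Wdr43, whose falls at 6 h were the largest among members with CACGTG, for Tsr1, the member called at 1 h, and for Rrn3, which has 2 sites and stayed called without the block. Each is 30 bases, 5′ to 3′ on the strand of the gene, with the E-box in capitals. The windows lie at chr10:13193092-13193121 (minus strand, Ltv1), chr17:71616220-71616249 (plus strand, Wdr43), chr11:74898092-74898121 (plus strand, Tsr1), and chr16:13780472-13780501 and chr16:13780639-13780668 (plus strand, Rrn3).
Ltv1: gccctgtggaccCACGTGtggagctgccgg
Wdr43: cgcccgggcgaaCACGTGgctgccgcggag
Tsr1: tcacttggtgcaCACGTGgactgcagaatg
Rrn3, upstream site: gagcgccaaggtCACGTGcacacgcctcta
Rrn3, site nearer the start: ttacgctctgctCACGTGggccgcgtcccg
The remaining 5 members with CACGTG were Utp4, Utp20, Nop2, Pes1 and Mybbp1a. The 9 members with CACGTG had a median log2 fold change at 6 h of -0.34 (-0.50 to -0.22), and the 29 members without it one of -0.31 (-0.67 to -0.08), so that the first range lay within the second. Nop58, Ncl and Ddx21, whose falls were among the 4 largest, had no CACGTG in this window. A match gives only the letters and does not show that a factor was bound.

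The comparison of 1 h with 0 h asks how early the pathway moved. At 1 h 1 of the 43 tested members fell and 0 rose (edgeR with replicate block), where 2.14% of all genes tested were called lower and 1.36% higher, so the share of members called was near the background. At an unadjusted p under 0.05, 12 members were lower and 2 higher (9.95% and 8.28% of all genes tested), and DESeq2 with the block called Tsr1 lower and Bop1 higher (2.98% and 1.99% of all genes tested were called in these directions). Without the block 0 members were called by edgeR, where 0% of all genes tested were lower and 0.0424% higher, or by DESeq2, where 0.233% were lower, with 2 lower and 0 higher at an unadjusted p under 0.05 in either tool (2.43% and 1.46% of all genes tested in edgeR, 2.55% and 1.73% in DESeq2). The median log2 fold change was -0.05, with 30 members below 0 and 13 above. In replicates 1 and 2 the members' median ratios were -0.08 and -0.10, with 36 and 34 of the 43 lower, whereas in replicate 3 the median was 0.0057 and 20 were lower. When the 1 h library of replicate 3 was left out, 3 members were called (Tsr1, Ppan and Rrs1).

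Tsr1 encodes a GTPase-like factor that binds the late small subunit precursor (chromosome 11, 74898071 to 74909342). It had 62.1, 58.4 and 68.4 CPM at 0 h, 49.3, 46.8 and 56.3 CPM at 1 h, and 47.2, 43.1 and 53.0 CPM at 6 h. The libraries at 1 h lay below those at 0 h without overlap, and each replicate then moved little to 6 h. The log2 fold change of Tsr1 at 1 h was -0.31 (SE 0.048, edgeR adjusted p = 0.00257), with log2 ratios of -0.33, -0.32 and -0.28 in the 3 replicates. Tsr1 was called in 9 of 9 fits with a single library omitted (highest edgeR adjusted p = 0.0452). It was not called with all libraries of replicate 1 or of replicate 2 omitted (edgeR adjusted p of up to 0.0771), and the adjusted p without the block was 1.00 in edgeR.

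In the other role groups no member was past the threshold at 1 h, and the member with the smallest adjusted p is given for each. These were Rrn3 (log2 fold change -0.14, edgeR adjusted p = 0.132), Ddx21 (-0.11, edgeR adjusted p = 0.211), Gnl3 (-0.07, edgeR adjusted p = 0.634), Nop58 (-0.13, edgeR adjusted p = 0.176), Dkc1 (-0.11, edgeR adjusted p = 0.261) and Rrp1b (-0.19, edgeR adjusted p = 0.0775). Rrn3, Tsr1, Rrp1b and Noc3l were the 4 members whose libraries at 1 h lay below those at 0 h without overlap, as did 4.93% of all genes tested. In the same hour Bop1 had a log2 fold change of 0.16 (edgeR adjusted p = 0.0992), Nhp2 one of 0.15 (edgeR adjusted p = 0.268) and Mrto4 one of 0.09 (edgeR adjusted p = 0.407), each with 3 of 3 replicates above the start, as in 20.8% of all genes tested. No other member was above the start in 3 of 3 replicates, whereas 17 of the 43 were below it in 3 of 3. The share of all genes tested that were below it in 3 of 3 is not given here.

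The comparison of 6 h with 1 h places the change in time. Between 1 h and 6 h, 35 of the 43 tested members fell and 0 rose (edgeR with replicate block), where 17.5% of all genes tested were called lower and 18% higher. The members' median log2 fold change was -0.29, with medians of -0.19, -0.28 and -0.39 in replicates 1, 2 and 3. At an unadjusted p under 0.05, 38 members were lower and 0 higher (22.1% and 22.6% of all genes tested), and DESeq2 with the block called 38 lower (17.2% of all genes tested) and 0 higher. Without the block edgeR called 2 members lower (Ubtf and Ddx21, with 0.663% of all genes tested lower) and DESeq2 10 (4.02%). The adjusted p-values without the block of the other 33 called members ran from 0.0749 (Npm1) to 0.809 (Rrs1) in edgeR. Both comparisons use the libraries at 6 h, so the calls are not independent.

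Of the 43 tested members, 34 were called lower at 6 h both against 0 h and against 1 h. A further 5 were called against 0 h but not against 1 h (Polr1a, Heatr1, Wdr75, Tsr1 and Rrp1b), 1 was called against 1 h but not against 0 h (Nop10), and 3 were called in neither. For the 39 members called at 6 h against 0 h, the change at 1 h was a median of 19.7% of that at 6 h on the log2 scale. It was 93.7% for Rrp1b and 77.8% for Tsr1, 40.4% for Rrn3, and 6.37% and 5.73% for Ncl and Npm1. The share is negative where the fitted change at 1 h was above 0, as it was for 13 of the 43 tested members. Among those called at 6 h against 0 h, it was -79.5% for Bop1, -59.4% for Nhp2 and -4.34% for Ubtf. These shares have no error of their own, and those of members that changed little at 6 h rest on small differences.

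By role, the fall from 1 h to 6 h was again largest in median for the abundant nucleolar proteins (-0.56, 3 of 3 called) and the box C/D core (-0.54, 3 of 3 called). In the C/D core, Fbl had a log2 fold change of -0.57 (SE 0.056, edgeR adjusted p = 9.14e-06) and Nop58 one of -0.54 (SE 0.049, edgeR adjusted p = 5.47e-06). Ubtf changed by -0.54 (SE 0.058, edgeR adjusted p = 1.81e-05), against -0.52 from 0 h, and Rrn3 by -0.20 (SE 0.045, edgeR adjusted p = 0.00401). In the box H/ACA group 5 of 5 were called, with Dkc1 at -0.41 (edgeR adjusted p = 5.15e-05), Nhp2 at -0.39 (edgeR adjusted p = 0.000619) and Gar1 at -0.30 (edgeR adjusted p = 0.00637). Among the small subunit genes 7 of 13 were called, led by Ltv1 (-0.45, edgeR adjusted p = 0.000101), Rrp12 (-0.42, edgeR adjusted p = 5.62e-05) and Rrp9 (-0.41, edgeR adjusted p = 0.000204). Among the large subunit genes 12 of 13 were called, led by Mrto4 (-0.43, edgeR adjusted p = 9.84e-05), Noc2l (-0.38, edgeR adjusted p = 0.000152) and Bop1 (-0.36, edgeR adjusted p = 0.000105). The adjusted p of Polr1b in this comparison was 0.0158 in edgeR and passed 0.05 with any of 3 single libraries omitted (1 h replicate 1 and 6 h replicates 2 and 3). Nop2, Noc3l, Brix1, Utp4, Utp20 and Ppan were likewise not called in 1 to 6 of the 9 fits with a single library omitted.

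**Figure D3:**
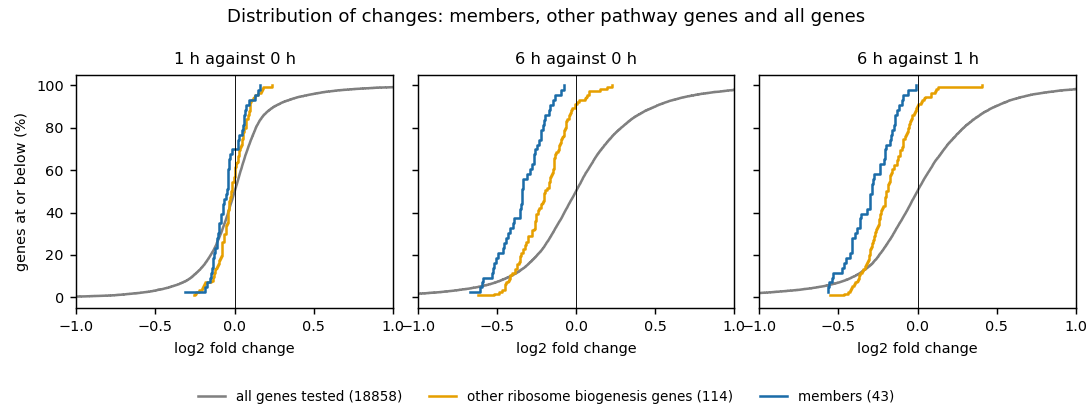
Cumulative distribution of fitted log2 fold changes (horizontal axis, cut at -1 and 1) for the 43 tested members, the 114 other pathway genes tested and all 18858 genes tested, with the percentage of genes at or below each value on the vertical axis. At 6 h against 0 h every member lies below 0 (median -0.34), the other pathway genes have a median of -0.20 and all genes one of 0.00. At 1 h against 0 h these medians are -0.05, -0.02 and 0.00, and 30 of the 43 members lie below 0.

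The pathway has many more genes than these members, and 116 of them were listed by role as a wider set, of which 115 were matched and 114 tested (Riok2 was not matched and Exosc6 was too low). At 6 h against 0 h, 67 of the 114 were lower (58.8%, against 17.5% of all genes tested) and 3 were higher, with a median log2 fold change of -0.20. Among other RNA polymerase I genes 7 of 12 were lower and 2 higher, among other small subunit factors 24 of 40 lower, and among other large subunit factors 25 of 44 lower and 1 higher. Of the snoRNP assembly factors 5 of 7 were lower, and of the RNA exosome, which trims precursor rRNA, 6 of 11. At 1 h against 0 h 2 of the 114 were lower (Ttf1 and Surf6), which is 1.75% against 2.14% of all genes tested, and 0 higher. There were 14 lower and 6 higher at an unadjusted p under 0.05 (edgeR, where the shares of all genes tested were 9.95% and 8.28%). At 1 h DESeq2 with the block called 5 lower and 1 higher (2.98% and 1.99% of all genes tested). At 6 h against 1 h, 71 were lower and 1 higher in edgeR (17.5% and 18% of all genes tested). Without the block edgeR called 7 lower at 6 h against 0 h (0.955% of all genes tested). It called 0 at 1 h (0% of all genes tested lower and 0.0424% higher), and 4 lower and 1 higher at 6 h against 1 h (0.663% lower).

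The largest falls of the wider set were in Taf1d, a subunit of the promoter factor SL1 (-0.62, edgeR adjusted p = 1.01e-05, and 0.0536 without the block), Polr1g (listed as Cd3eap), an RNA polymerase I subunit (-0.52, edgeR adjusted p = 5.87e-05, and 0.113 without the block), and Utp18, of the small subunit processome (-0.49, edgeR adjusted p = 1.61e-05, and 0.0339 without the block). The genes that rose were Polr1h (listed as Znrd1), another polymerase subunit, from 14.7 ± 0.493 CPM (SD, n = 3) to 17.2 ± 0.272 CPM (SD, n = 3) (0.23, edgeR adjusted p = 0.0246), the RNA helicase gene Ddx56 (0.20, edgeR adjusted p = 0.00956) and Ttf1 (0.15, edgeR adjusted p = 0.048). These 3 had adjusted p-values between 0.288 and 0.312 in edgeR without the block. Ttf1, whose product terminates transcription by RNA polymerase I, stood at 30.9 ± 1.58 CPM (SD, n = 3) before induction. At 1 h it was 25.9 ± 0.113 CPM (SD, n = 3), and at 6 h it was 34.3 ± 0.597 CPM (SD, n = 3). It was thus lower at 1 h (-0.26, edgeR adjusted p = 0.0216, and 0.775 without the block) and higher at 6 h than at 1 h (0.41, edgeR adjusted p = 0.000108, and 0.0291 without the block). The call at 1 h was not kept when a single library of 0 h, or replicate 1 or 2 of 1 h, was omitted.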

How the data were processed

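NSC cultures from the SEZ of adult mice were profiled by RNA-seq before (0 h), 1 h after and 6 h after induction, with 3 replicates each. The authors deposited raw counts of reads per Ensembl gene, without normalisation, from paired-end reads aligned to mm10 (GRCm38) and counted with STAR 2.5.3a after FastQC; their own differential test was DESeq2 1.22.1. The strand setting, any covariate and any threshold are not given in the sources used here. All 9 columns were matched to libraries by their titles. Tested members had at least 1563 counts in each library. No pair of libraries agreed within sampling noise (chi-square per degree of freedom of at least 13.6). The labels do not say whether replicates were separate animals or cultures. The p-values with the block measure the spread left among these samples after time and replicate number are fitted. Those without the block measure the spread between the samples of a time point.

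Symbols, positions and transcripts came from GENCODE M21, which held 48144 of 48526 gene identifiers, and 31382 genes had a count. From the counts, genes were kept with filterByExpr of edgeR 4.0.16 in R 4.3.3 (minimum count 10, minimum total 15), scaled with TMM (factors 0.972 to 1.02) and fitted over all 9 libraries by quasi-likelihood (glmQLFit, glmQLFTest) with time and replicate number. Adjusted p-values are Benjamini-Hochberg over 18858 genes, with a threshold of 0.05. Ratios within replicates used log2 of CPM + 0.5. Replicate numbers come from the labels, which do not state what same-numbered libraries share. After subtraction of time point means, libraries correlated across genes at 0.733 to 0.800 in the 9 pairs with the same number, so the numbers were taken to pair the samples. The 18 other pairs were at -0.462 to -0.314. Deviations from a time point mean cancel out within that time point, so these negative values follow from the subtraction and are not separate evidence. The fit without the block is given beside the results.

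The members, role groups, wider list and naming rule were chosen with earlier results of these data known. Members were named where they had up to the 3 largest changes past the threshold in their role group and comparison, or, with none past it, the smallest adjusted p. Other members named singly were named after their values were seen. Alternatives were no replicate block, DESeq2 1.42.0 with and without the block, RLE scaling, library totals, no filter, a mean of at least 1 CPM, only the 6 libraries compared, adjusted p under 0.01, correction for trends in GC and length (splines with 4 degrees of freedom), and leaving out each library or replicate number. The fits were tested on simulated data. Copies were sought with BLAST 2.17.0, and tables and figures used Python 3.11.15, pandas 2.3.3 and matplotlib 3.10.9.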

Additional observations from a re-analysis of the deposited data

Results flagged for a closer look

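For 3 members the effects at 1 h and at 6 h had opposite signs in every replicate, and the difference between the 2 effects, which is the comparison of 6 h with 1 h, was past the threshold. Nhp2, a core protein of box H/ACA snoRNPs, had a log2 fold change of 0.15 at 1 h (edgeR adjusted p = 0.268) and -0.25 at 6 h, a difference of -0.39 (edgeR adjusted p = 0.000619). Bop1, a large subunit assembly factor, had 0.16 at 1 h (edgeR adjusted p = 0.0992) and -0.20 at 6 h, a difference of -0.36 (edgeR adjusted p = 0.000105). Mrto4, a large subunit factor related to a ribosomal stalk protein, had 0.09 at 1 h (edgeR adjusted p = 0.407) and -0.33 at 6 h, a difference of -0.43 (edgeR adjusted p = 9.84e-05). The rise at 1 h was not called for any of the 3 in edgeR, while DESeq2 with the block called that of Bop1 (adjusted p = 0.0479). For Nhp2 and Mrto4 most of it stood in replicate 3 (log2 ratios of 0.37 and 0.23, against at most 0.043 in replicates 1 and 2). Without the block the adjusted p-values of the 3 differences were 0.169, 0.309 and 0.111 in edgeR.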

How the results depend on the processing

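The replicate block decided most counts. Without it, edgeR called 0 members at 1 h, 3 at 6 h against 0 h and 2 at 6 h against 1 h, and 0, 7 and 5 genes of the wider list. DESeq2 without it called 0, 12 and 10 members and 1, 23 and 19 genes of the wider list. Of all genes tested, edgeR without the block called 0%, 0.955% and 0.663% lower in these comparisons, and DESeq2 0.233%, 4.3% and 4.02%. At 1 h the counts were small and moved with several settings. Members called were 2 in DESeq2 with the block and 2 after removal of GC and length trends, and genes of the wider list called, 2 in the reported fit, were 6 in DESeq2 with the block, 4 with library totals, 7 with no filter, 4 after removal of GC and length trends and 0 at an adjusted p under 0.01. DESeq2 with the block called 2.98% of all genes tested lower and 1.99% higher at 1 h. The fit with no filter covered all 31382 genes with a count. Removal of these trends moved the members' median at 6 h against 0 h to -0.38. Counting CACGCG with CACGTG raised the share of members with a promoter motif from 23.7% to 50%. The share rose from 11.1% to 27.8% in the genes tested and from 18.1% to 46.8% in the other pathway genes. With 1 library or 1 replicate number left out, members called ran from 0 to 3 at 1 h, from 29 to 41 at 6 h against 0 h and from 23 to 35 at 6 h against 1 h, and genes of the wider list from 0 to 5, from 38 to 80 and from 45 to 69. The lowest values at 6 h were those without the libraries of replicate 2, and for the wider list at 6 h against 0 h the count was 46 without 0 h replicate 2 alone. At 1 h, the count of the wider list was 0 when a single library of 0 h, or replicate 1 or 2 of 1 h, was omitted. It was 5 without 1 h replicate 3 and 4 without 6 h replicate 3, and the count of members was 3 without 1 h replicate 3. Shares of all genes tested are not given for the leave-out fits, nor for the other settings except those without the block and DESeq2. For these fits the counts cannot tell a move of the lists from a move of all calls. The members' medians kept their sign in every fit run, with leave-out ranges of -0.08 to -0.01 at 1 h, -0.37 to -0.30 at 6 h against 0 h and -0.33 to -0.25 at 6 h against 1 h. The log2 fold change of Gnl3 at 1 h, which was not called, ran from -0.15 to 0.0043 and turned positive without 1 h replicate 1. The causes of these differences were not tested. Wdr74 was too low to be tested, and the tested members had at least 1563 counts in every library.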
